A study of Canis lupus familiaris with 10 samples.

Results

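The common gamma chain, encoded by IL2RG, is a receptor subunit shared by several cytokines of lymphocytes, and 10 genes of this system were followed in canine cutaneous histiocytoma (CCH), a skin tumor of dogs formed by cells of the Langerhans cell lineage that regresses spontaneously. The genes were the cytokines IL21, IL7 and IL15, the receptor chains IL21R, IL2RA, IL2RB, IL2RG, IL7R and IL15RA, and the kinase JAK3. They were chosen by name, with earlier results of these data known, and all 10 were found among the 23266 gene symbols of the table. A gene was tested when its value reached at least 10 in at least 5 libraries, which 9 of the 10 and 12397 genes in all did. IL7 stayed under this limit. IL21 passed it only through the late libraries, since all 5 late values but only 1 early value reached 10.

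The assay was QuantSeq 3′ RNA-Seq, in which a transcript yields 1 fragment near its polyadenylated end, and levels of different genes are therefore compared here without a correction for length. The libraries came from whole cross sections of formalin-fixed, paraffin-embedded (FFPE) CCH from pet dogs, with tumor-adjacent tissue removed, and no treatment of the dogs is given. The labels place 5 tumors in group 1 of a histological staging scheme (early) and 5 in group 3 (late, described as enriched in lymphocytes), and the question was how the stages differ. The 4 early dogs with a stated age were 0.5 to 5 years old and the 5 late dogs 1.5 to 9 years, the share of RNA fragments over 200 nucleotides (DV200) was 64.5 to 71.2% in early and 71.2 to 75.8% in late CCH, and the study lists early and late tumors under different extraction batches and index sets, so that stage and these batches cannot be told apart.

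Cytokines of this family each have a receptor chain of their own, and all signal through the common gamma chain. JAK3 is bound to the common gamma chain and JAK1 to the partner chain, and together they activate STAT transcription factors, mainly STAT5 for IL2, IL7 and IL15 and STAT3 for IL21. IL21 is made mainly by activated CD4+ T cells, among them follicular helper T cells, and acts on B cells, cytotoxic T cells and NK cells, whereas IL7 and IL15 are made largely by stromal, epithelial and myeloid cells and maintain lymphocytes.

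Values are given as normalized read counts. The log2 fold change (log2FC) is the mean of log2(value + 1) in late minus that in early CCH, with its standard error (SE), from limma across all genes tested. A call needed both a log2FC of 1 or more in size and a p, adjusted by the Benjamini-Yekutieli (BY) procedure, not above 0.05. The libraries held 2973125 to 4439709 reads assigned to genes, and 1 read was worth 0.788 to 1.07 normalized read counts. The T-cell marker level of the libraries differed between stages. The summed normalized read count of 12 T-cell markers was 60.9, 643, 2117, 1496 and 227 in early libraries 1 to 5 and 3674 to 5751 in the late libraries. Each of the 12 genes had every late value above every early one, as 5.91% of all genes tested did, but only CD6 was called higher (limma), where 1.06% of all genes were, and that call was lost without early library 5 or late library 1, 2, 4 or 5 (limma, adjusted p = 0.0654 to 0.0924). The Langerhans cell marker CD207 is not analysed here, while 2 of 8 tested Langerhans and dendritic cell markers, FLT3 and FCER1A, were called lower in late CCH (limma), where 1.11% of all genes tested were called lower. Of this list, 6 genes had a log2FC below 0 and 2 above it (CD83, 1.09, and CADM1, 0.61), and with 1 library left out at most 1 gene of all marker lists was still called lower. In whole tissue, fewer cells of a type and less RNA per cell cannot be told apart.

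Among the 9 genes tested, IL21 and JAK3 were called higher in late CCH and none was called lower, where 1.06% of all genes tested were called higher and 1.11% lower. Neither edgeR nor DESeq2 called any of the 9 lower, and none was lower in limma at an unadjusted p under 0.05 (5 were higher). The share of all genes tested that reach this unadjusted p was not counted. Such counts, here and below, are therefore not read as results about a list. The median log2FC of the 9 genes was 1.36, beside -0.004 for all genes tested. IL21, IL21R and JAK3 had every late value above every early value, a pattern found in 5.91% of all genes tested, and none had every late value below every early one, which 6.05% of all genes had. Because IL21 had to be high in late CCH to enter the test, these counts describe the genes and are not support for a change of the family.

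**Figure D1:**
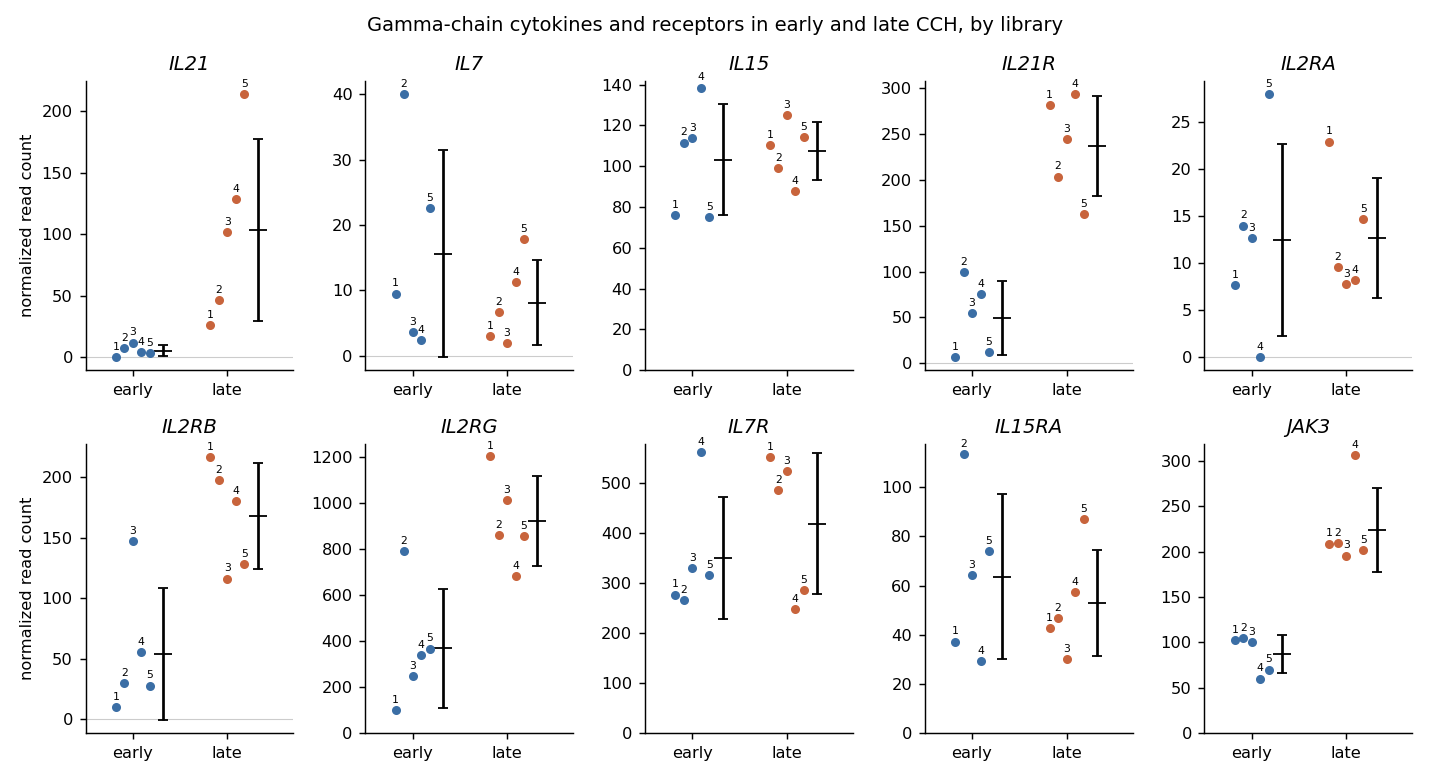
Normalized read count (y-axis, linear, a separate scale for each gene) of the 10 genes in 5 early (blue) and 5 late (orange) libraries, with the library number above each point and the mean with SD beside each group. For IL21, IL21R and JAK3 the points of the stages do not overlap, while those of IL7, IL15, IL2RA, IL7R and IL15RA do.

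IL21 was barely present in early CCH and rose in late CCH. Its values were 0, 7.44, 11.8, 3.94 and 3.22 in early libraries 1 to 5 and 25.9, 46.6, 102, 129 and 214 in late libraries 1 to 5. These came from 29 reads in all early libraries together and 510 reads in the late ones. The lowest late value was above the highest early value, and within late CCH the highest value was 8.28 times the lowest. Early CCH averaged 5.27 ± 4.49 and late CCH 103 ± 74.4 (SD, n = 5 each), and the log2FC was 4.13 ± 0.72 (SE; 95% CI 2.58 to 5.68; limma, adjusted p = 0.0426), the 12th highest of the 12397 genes. Since IL21 entered the test only through its late values, this p and this rank describe the gene and are not support for a change. The call stood close to the threshold. It held without early library 2 (limma, adjusted p = 0.0482) and without early library 3 (0.0352), and was lost without early library 1 (0.0633), 4 (0.0673) or 5 (0.122) and without late library 1 (0.0545), 2 (0.0992), 3 (0.0865), 4 (0.154) or 5 (0.109). The log2FC over these fits was 3.57 to 4.53. The call was also lost with a pseudocount of 0.5 (limma, adjusted p = 0.0599) and when only genes with a mean of at least 50 were tested (0.0828).

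IL15 supports NK cells and memory CD8+ T cells. Its values were 76.2, 112, 114, 139 and 75.1 in early and 110.4, 98.9, 125, 87.9 and 114 in late CCH. All late values lay inside the early range. Early CCH averaged 103 ± 27.2 and late CCH 107 ± 14.3 (SD, n = 5 each), and the difference was smaller than either SD (log2FC 0.09 ± 0.21 SE, 95% CI -0.37 to 0.55; limma, adjusted p = 1).

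IL7, needed for the survival of naive T cells, was read 81 times in all early and 40 times in all late libraries. Its values were 9.52, 40.0, 3.62, 2.36 and 22.5 in early and 2.98, 6.66, 1.94, 11.2 and 17.8 in late CCH. The highest values were those of early libraries 2 and 5, and the ranges overlapped. The same 2 libraries had the highest summed fibroblast markers of all, at 60438 and 45798. Late library 1 came next with 35601, but its IL7 value was only 2.98. Early libraries 2 and 5 also had the highest summed macrophage markers of the early libraries (9354 and 4041). The part of either cell type in the IL7 level was not tested. The difference of the mean log2 values was -0.59 (exact two-sided permutation test over all assignments of the 10 libraries to 2 groups of 5, p = 0.508, where 0.00794 is the smallest p it can give).

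IL21R, the chain that binds IL21, had the second largest log2FC of the 9 genes but was not called. Its values were 6.66, 99.6, 54.3, 75.6 and 11.8 in early and 281, 204, 244, 293 and 163 in late CCH. Early libraries 1 and 5, which were lowest for the T-cell markers, were also lowest here, and every late value exceeded the early ones. Early CCH averaged 49.6 ± 40.2 and late CCH 237 ± 54.4 (SD, n = 5 each), with a log2FC of 2.80 ± 0.62 (SE; 95% CI 1.45 to 4.15; limma, adjusted p = 0.117). It was called with Benjamini-Hochberg (BH) adjustment (limma, adjusted p = 0.0117) and with DESeq2 (adjusted p = 0.00477). With edgeR it was not called (adjusted p = 0.187), nor in any of the 10 limma fits that left out 1 library.

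IL2RB, the signaling chain that the receptors of IL2 and IL15 share, spread widely in early CCH. Its values were 10.5, 29.8, 147, 55.9 and 27.9 in early and 217, 198, 116, 180.0 and 128 in late CCH. Early library 3 lay above 2 of the late libraries, while the other early libraries lay below all of them. Early CCH averaged 54.3 ± 54.5 and late CCH 168 ± 43.9 (SD, n = 5 each), and the log2FC of 2.08 ± 0.53 (SE; 95% CI 0.93 to 3.24) was not called (limma, adjusted p = 0.21). It was called with BH adjustment (limma, adjusted p = 0.021), but not with edgeR (adjusted p = 0.571) or DESeq2 (adjusted p = 0.145). Without early library 3 the log2FC was 2.57 and called (limma, adjusted p = 0.0325), the only call in 10 fits with 1 library left out. Early library 3 also had the highest summed T-cell markers (2117) and cytotoxic markers (3415) of the early libraries, and their part in its IL2RB level was not tested.

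IL2RG, the common chain itself, had the highest mean of the 10 genes in both stages, although in early CCH it was above IL7R in only 2 of 5 libraries. Its values were 98.1, 791, 249, 338 and 367 in early and 1203, 861, 1013, 683 and 855 in late CCH. Early library 2 lay above the lowest late library, and the other 4 early libraries lay below all late ones. Early CCH averaged 369 ± 258 and late CCH 923 ± 195 (SD, n = 5 each), and the log2FC of 1.596 ± 0.42 (SE; 95% CI 0.69 to 2.50) was not called (limma, adjusted p = 0.233). BH adjustment gave a call here too (limma, adjusted p = 0.0233), but edgeR (adjusted p = 0.485) and DESeq2 (adjusted p = 0.0982) did not. Without early library 2 the log2FC was 1.95 and called (limma, adjusted p = 0.0466), the only call in 10 such fits. That library had the highest summed macrophage markers of the early ones (9354, against 1203 to 4041 in the other 4), and myeloid cells also carry the common chain, but their part in its IL2RG level was not tested. The gene before IL2RG in the RefSeq annotation of assembly UU_Cfam_GSD_1.0, CXHXorf65, was called higher in late CCH (log2FC 3.91), and the gene after it, MED12, had a log2FC of 0.05.

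IL7R, the receptor chain of naive and memory T cells that binds IL7, had the second highest mean of the genes in both stages, but was above IL2RG in 3 of the 5 early libraries. Its values were 277, 265, 329, 562 and 317 in early and 552, 486, 524, 248 and 285 in late CCH. Early library 4 held the highest value and late library 4 the lowest, so the ranges overlapped throughout. Early CCH averaged 350 ± 122 and late CCH 419 ± 142 (SD, n = 5 each), and the log2FC was 0.24 ± 0.27 (SE; 95% CI -0.34 to 0.83; limma, adjusted p = 1).

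IL2RA, the chain that gives the IL2 receptor its high affinity and marks activated and regulatory T cells, was low in every library. Its values were 7.62, 14.0, 12.7, 0 and 27.9 in early and 22.9, 9.51, 7.75, 8.18 and 14.7 in late CCH, from 63 reads in each stage. The highest and the lowest value both came from early libraries. The log2FC was 0.53 ± 0.80 (SE; limma, adjusted p = 1), and the 95% CI was -1.20 to 2.26.

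IL15RA, which presents IL15 to neighboring cells, was the only tested gene of the family with a log2FC below 0. Its values were 37.1, 114, 64.2, 29.1 and 74.1 in early and 42.8, 46.6, 30.02, 57.3 and 87.1 in late CCH. The ranges overlapped, and the log2FC was -0.19 ± 0.39 (SE; 95% CI -1.03 to 0.64; limma, adjusted p = 1). The signs of the IL2RA, IL15 and IL15RA differences each turned when 1 early library was left out, and no direction is drawn from them.

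JAK3 rose in late CCH by a smaller factor than IL21 but with less spread. Its values were 103, 104, 100.4, 59.9 and 69.8 in early and 209, 209, 196, 307 and 201 in late CCH. Late library 4 stood above the other late libraries, and all late values were above all early ones. Early CCH averaged 87.4 ± 21.0 and late CCH 224 ± 46.4 (SD, n = 5 each), with a log2FC of 1.36 ± 0.21 (SE; 95% CI 0.91 to 1.82; limma, adjusted p = 0.0251). The call held without early library 2, 3 or 4 or late library 3 (limma, adjusted p = 0.0291 to 0.0406). It was lost without early library 1 (0.0531) or 5 (0.0874) and without late library 1 (0.0657), 2 (0.0781), 4 (0.0854) or 5 (0.0613), with a log2FC of 1.24 to 1.44 over all 10 fits.

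**Figure D2:**
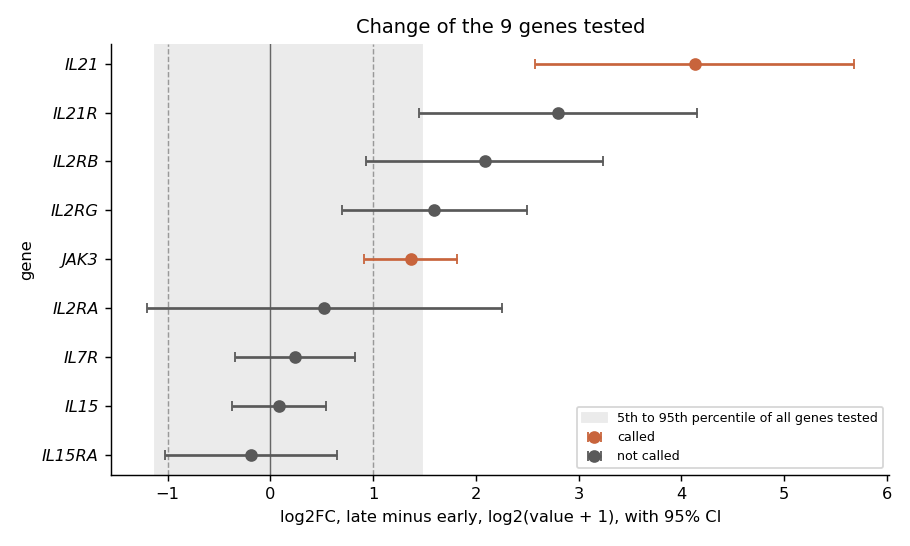
Log2FC of the 9 tested genes (x-axis, late minus early, from log2(value + 1)) with its 95% CI, the 5th to 95th percentile of all genes tested in gray and dashed lines at a size of 1. Only IL21 (4.13) and JAK3 (1.36) were called, and the interval of JAK3 is narrower than those of IL21R, IL2RB and IL2RG, which have larger log2FC values.

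**Figure D3:**
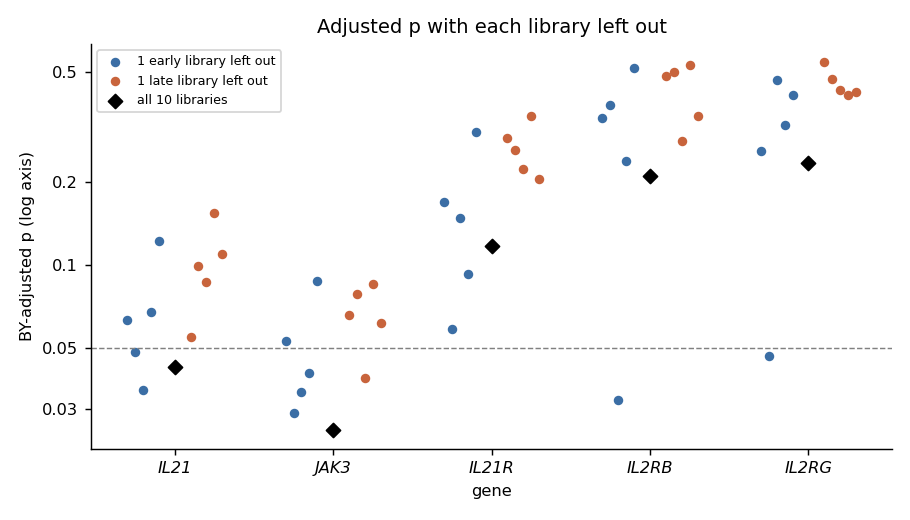
BY-adjusted p (y-axis, log axis) of 5 genes with all 10 libraries (black) and with 1 early (blue) or 1 late (orange) library left out, and the threshold of 0.05 as a dashed line. IL21 stays under the line in 2 and JAK3 in 4 of 10 fits, IL21R in none, and IL2RB and IL2RG in 1 each.

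The 10 genes together summed to 625.5 to 1576 in early and 2005 to 2667 in late CCH, which did not overlap. IL2RG and IL7R made up most of this sum, with a mean of 64.0% in early and 58.9% in late CCH. IL2RG took 30.5 ± 13.4% (SD, n = 5) of the sum in early and 40.6 ± 4.17% in late CCH, and IL7R 33.5 ± 11.5% and 18.3 ± 4.85%. The share of IL21 was 0.438 ± 0.399% in early and 4.83 ± 3.70% in late CCH. The shares of the sum are linked, since a larger share of 1 gene makes that of the others smaller.

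In early CCH the order by mean level was IL2RG, IL7R, IL15, JAK3, IL15RA, IL2RB, IL21R, IL7, IL2RA and IL21. Of the 9 neighboring pairs in this order, only the step from IL7R to IL15 was larger than the SD of its paired log2 difference over the libraries (1.74 ± 0.35, SD, n = 5). In late CCH the order was IL2RG, IL7R, IL21R, JAK3, IL2RB, IL15, IL21, IL15RA, IL2RA and IL7. There, IL21R and JAK3 did not differ beyond their spread (log2 difference 0.07 ± 0.30, SD, n = 5), nor did IL15 and IL21, IL21 and IL15RA, or IL2RA and IL7. The step from IL2RG to IL7R was 1.19 ± 0.32 (SD, n = 5) and held in all 5 late libraries. IL21 went from the last place of 10 in early to the 7th in late CCH.

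Spread within a stage also differed among the genes. The SD of the log2 values of IL21R was 1.65 in early and 0.35 in late CCH (n = 5 each), that of IL2RB was 1.36 and 0.39, and that of IL2RG was 1.08 and 0.30. JAK3 had 0.37 and 0.27, and IL15 0.39 and 0.19. IL21 had an SD above 1 in both stages, with 1.40 in early and 1.19 in late CCH. So did IL7, which was not tested, with 1.53 and 1.11, but no other of the 10 genes. The trait was not particular to these genes, since PRF1, an effector gene described below, had 1.61 and 1.004. The difference between the SDs of the stages was not tested.

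Each gene was also set against the summed T-cell markers of the same library as log2 of the ratio, both with 1 added, which is a description with no test. This ratio was higher in late than in early CCH for IL21 alone, by 0.89, with 3 of 5 late libraries above every early one. It averaged -6.72 ± 1.06 in the early and -5.82 ± 1.21 in the late libraries (SD, n = 5 each), so that the difference was smaller than either SD. Late library 1, the lowest late library for IL21, had the second highest marker sum (5152). For IL21R the difference, late minus early, was -0.44, and the ranges overlapped. It was -1.15 for IL2RB, -1.64 for IL2RG, -1.87 for JAK3 and -2.71 for IL2RA. For IL7R (-2.995), IL15 (-3.15) and IL15RA (-3.43) all 5 late ratios were below all early ones, and for IL7 (-3.82) 4 were. The log2FC of IL7R, IL15 and IL15RA themselves was 0.24, 0.09 and -0.19. Since the marker sum did not overlap between the stages, their lower ratios largely restate that sum. The part of T-cell number in the values of IL21, IL21R, IL2RB, IL2RG and JAK3 was not tested.

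**Figure D4:**
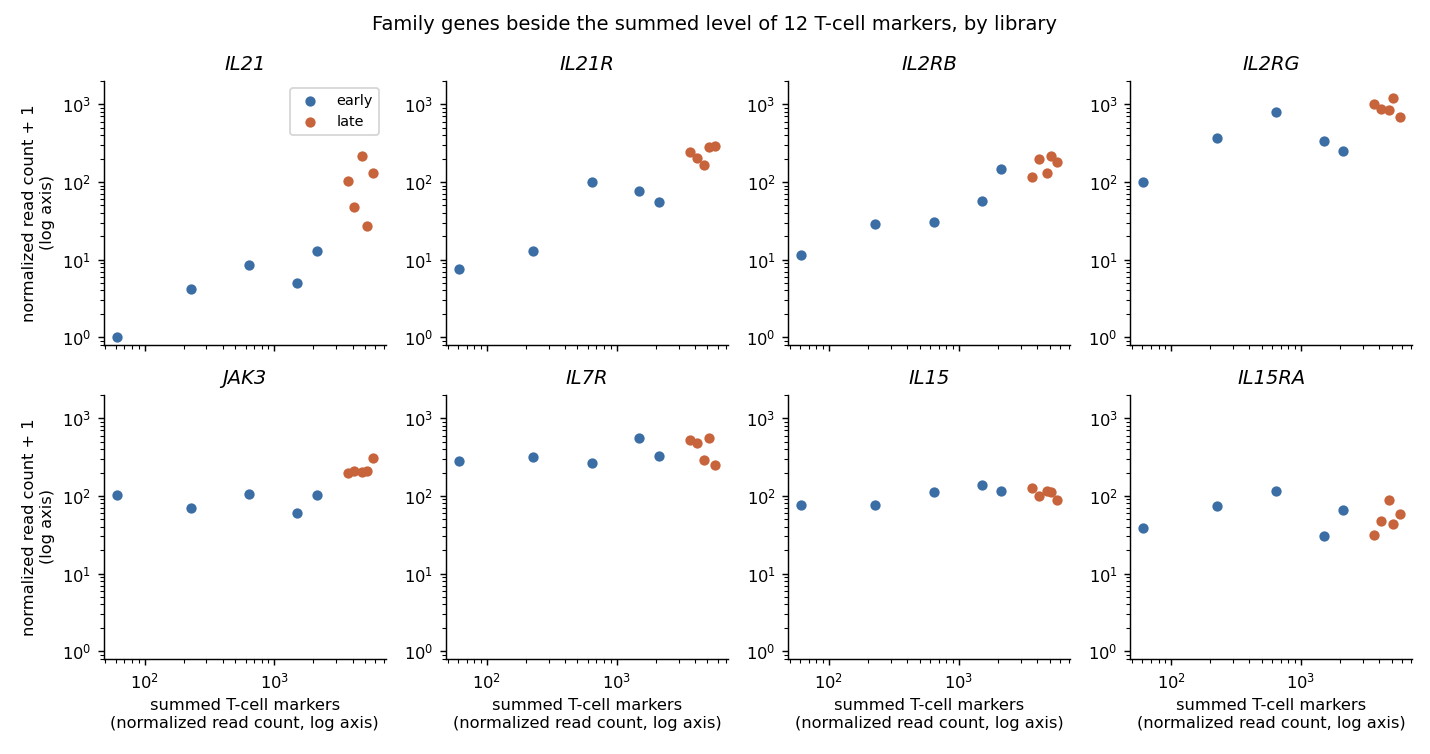
Normalized read count + 1 of 8 genes (y-axis, log axis) against the summed normalized read count of 12 T-cell markers (x-axis, log axis) in 5 early (blue) and 5 late (orange) libraries, 1 point per library. IL7R stays between 248 and 562 while the markers run from 60.9 to 5751, and IL21 runs from 25.9 to 214 among the late libraries.

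The B-cell markers, of cells on which IL21 acts, summed to 52.6 to 238 in early and 430 to 2398 in late CCH. The highest sum was in late library 3, which held the middle IL21 value (102). The cytotoxic markers summed to 177 to 3415 in early and 3389 to 8883 in late CCH and were lowest among the late libraries in the same library 3. The macrophage markers summed to 1203 to 9354 in early and 5204 to 10347 in late CCH. The part of these cells in the results was not tested.

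Further genes of the pathway were taken from 6 lists with 46 genes, of which 42 were in the table and 37 were tested. Calls were made for 2 that were higher and 2 that were lower in late CCH, which is 10.8%, where 2.17% of all genes tested were called in either direction. The lists were written with earlier results of these data known, so this share is not support for a change of the pathway. The median log2FC of the 37 tested genes was 0.21.

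Among further cytokines and receptors, of the family or related to it, IL13RA1 fell. This receptor chain for IL4 and IL13 can pair with IL4R in place of the common gamma chain and thus lies outside the family. Its values were 974 to 1413 in early and 248 to 411 in late CCH, with no overlap. The log2FC was -1.80 ± 0.16 (SE; limma, adjusted p = 0.00201), and it was called in all 10 fits that left out 1 library. IL4R, which binds IL4 and lies next to IL21R in the annotation, had a log2FC of 0.62 (limma, adjusted p = 1). IL2 had no read in any of the 10 libraries, where the limit that a count of 0 allows, 3 reads, was a normalized read count of 2.36 to 3.22 per library. IL9 and TSLP stayed under the limit for testing, and IL4 and IL9R are not analysed here.

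None of the 5 tested genes of JAK1 and the STAT factors was called by limma, edgeR or DESeq2, and 1 was higher at an unadjusted limma p under 0.05. STAT6, the factor of IL4 and IL13, had the lowest log2FC of them, with 0.01 (limma, adjusted p = 1). STAT5B is not analysed here, so STAT5 is covered by STAT5A alone.

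Among 7 inhibitors of JAK-STAT signaling, SH2B3, an adaptor also known as LNK, fell from 327 ± 51.5 (SD, n = 5) to 127 ± 43.1 (SD, n = 5), with a log2FC of -1.40 ± 0.22 (SE; limma, adjusted p = 0.0288). Its values were 248 to 391 in early and 83.5 to 196 in late CCH. The call held only without early library 2 (limma, adjusted p = 0.0474) or late library 3 (0.013) and was lost without each of the other 8 libraries (0.0527 to 0.104). SOCS1, the inhibitor with the highest log2FC, had 2.23 ± 0.70 (SE; limma, adjusted p = 0.492), and SOCS2, with the lowest, had -1.68 ± 0.38 (SE; limma, adjusted p = 0.133).

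Among 7 genes of survival and growth, PIM2, a kinase induced by cytokines through STAT5, rose from 61.8 ± 23.2 (SD, n = 5) to 209 ± 63.6 (SD, n = 5). Its values were 26.8 to 91.4 in early and 116 to 279.9 in late CCH, and its log2FC was 1.78 ± 0.32 (SE; limma, adjusted p = 0.0492). The call held only without early library 3 (limma, adjusted p = 0.0423) and was lost without each of the other 9 libraries (0.0535 to 0.172) and with TMM scaling (0.0507). MYC had the lowest log2FC of this list with -1.12 ± 0.42 (SE; limma, adjusted p = 0.913).

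Of 12 genes of follicular help, the T-cell program known to produce IL21, 10 were tested, with a median log2FC of 1.71. None was called by limma or edgeR and 1 was called higher by DESeq2. At an unadjusted limma p under 0.05, 6 were higher, with no share of all genes to set beside them. SH2D1A, an adaptor of T and NK cells, had the highest log2FC with 3.41 ± 0.69 (SE; limma, adjusted p = 0.0756) and was called without early library 3 (3.87, adjusted p = 0.0392). BATF, a transcription factor of T-cell activation, had a log2FC of -0.03 (limma, adjusted p = 1). CD40LG, a ligand by which T cells help B cells, stayed under the limit for testing.

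Of 6 effector genes that IL21 or IL15 are known to act on, 5 were tested. EOMES, a transcription factor of cytotoxic lymphocytes, rose from 79.4 ± 64.2 (SD, n = 5) to 612 ± 141 (SD, n = 5), with values of 16.2 to 170.1 in early and 465 to 769 in late CCH. Its log2FC was 3.42 ± 0.56 (SE; limma, adjusted p = 0.0331), and the call held without early library 2, 3 or 4 (limma, adjusted p = 0.0221 to 0.0484) and was lost without each of the other 7 libraries (0.0543 to 0.122). PRF1, which encodes perforin, had a log2FC of 3.43 ± 0.69 (SE; limma, adjusted p = 0.0756) and was called without early library 3 (3.93, adjusted p = 0.0336). IL10 had the lowest log2FC with -0.92 ± 0.51 (SE; limma, adjusted p = 1), and GZMB is not analysed here.

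**Figure D5:**
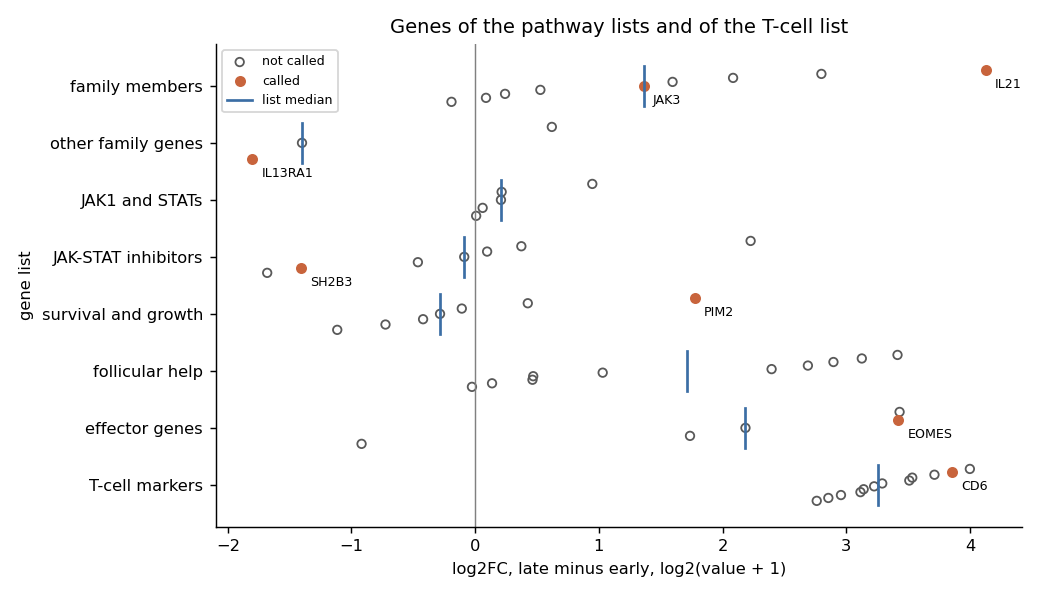
Log2FC (x-axis, late minus early, from log2(value + 1)) of every tested gene of the family, of the 6 pathway lists and of the T-cell markers, with called genes filled and named and the median of each list as a blue line. The 12 T-cell markers lie to the right with a median of 3.26, while the medians of the JAK1 and STAT genes and of the inhibitors lie near 0.

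The 3 genes whose log2 values over the 10 libraries, each centered on its own mean, differed least from those of IL21 were IDO1 (root-mean-square difference 0.82), CD6 (0.82) and SATB1 (0.94). IDO1, an enzyme of tryptophan breakdown, was 0.952 to 43.4 in early and 90.4 to 318 in late CCH, and like IL21 it was highest in late libraries 4 and 5. CD6 is a T-cell surface receptor and SATB1 a chromatin organizer of T cells. Both had all late values above all early ones. But the measure includes the stage difference of IL21 and its pattern among the late libraries. The choice thus favored genes that share them, the high values of IDO1 in late libraries 4 and 5 included. Within late CCH, CD6 ranged only from 137 to 184, while IL21 ranged from 25.9 to 214.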

How the data were processed

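The deposited values are a normalized signal per gene, read counts that the authors divided by 1 size factor per library. Per the methods and the labels, reads were trimmed with Cutadapt, aligned with STAR to CanFam3.1 and counted with featureCounts, again on genes extended downstream for reads left unassigned, with reads of several places shared evenly. The use of strand in counting and the tool versions are not given in the sources used here. In the RefSeq annotation of UU_Cfam_GSD_1.0, IL2RA and IL2RB overlap long noncoding RNAs and IL7 overlaps ZC2HC1A, so that their counts may be uncertain. Whether this holds for the CanFam3.1 genes used in counting was not tested. Whole reads were recovered for 100% of the values above 0 (within 0.001 reads) and used for the count tests. A further 11 columns could be matched to none of the samples and were left out. Column names show the stage but not the sample, so libraries are numbered only to name them, and age and DV200 were not linked to libraries. Each sample came from a different dog.

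Tests were limma 3.58.1 (R 4.3.3) on log2(value + 1), allowing for a mean-variance trend, for genes with at least 10 in at least 5 libraries, with BY adjustment over all of them. edgeR 4.0.16 (quasi-likelihood) and DESeq2 1.42.0 on the recovered reads, BH adjustment, other pseudocounts, filters and scalings, and each library left out were alternatives. The scripts were tested on simulated data. The genes and lists were chosen with earlier results of these data known. Named were all 10 genes, of each list the called genes and those with the highest and lowest log2FC, and the 3 genes most like IL21. A few results that this rule would name are not reported here. For the marker lists, only genes that a result turns on are named. UU_Cfam_GSD_1.0 served only for neighboring genes (10 of 10 matched), and limits from counts cover counting error only.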

Additional observations from a re-analysis of the deposited data

Results flagged for a closer look

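Both stages of the 10 genes gave 20 groups of 5 libraries, in each of which the gap between the most extreme library and its neighbor was divided by the whole range, and 2 groups exceeded the critical value of 0.71, where chance gives about 1. For JAK3 in late CCH the quotient was 0.877, because late library 4 had 307 and the next library 209. JAK3 had a log2FC of 1.25 without that library (limma, adjusted p = 0.0854). For IL7R in early CCH the quotient was 0.784, because early library 4 had 562 and the next library 329. Late library 4 also had the highest summed T-cell markers (5751), and the part of these cells in its JAK3 value was not tested.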

How the results depend on the processing

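Of 165 refits of the 9 tested genes under alternatives, 139 kept direction and call, 16 lost a call, 6 gained one and 4 changed sign. No paired analysis was possible because replicate numbers are missing from the table's columns and each tumor came from a different dog, so the fit with a replicate block was not run. IL21 was not called with a pseudocount of 0.5 (limma, adjusted p = 0.0599) or for genes with a mean of at least 50 (0.0828). Of the 9 genes, 2 were called higher, but 1 under each of these settings, 5 with BH adjustment and 0 to 3 with 1 library left out. None was called lower. JAK3 was called under all 9 other settings. IL2RA was fitted in 5 of the 10 fits with a library left out, since it stayed under the filter in the others, and its log2FC was -0.25 (without early library 4) to 0.66. With 1 library left out, the log2FC was -0.015 to 0.20 for IL15 (below 0 without early library 1 or 5), -0.43 to 0.055 for IL15RA (above 0 without early library 2), -0.077 to 0.073 for STAT6 and -0.13 to 0.058 for BATF. STAT6 was -0.0048 with TMM scaling and BATF 0.063 with column total scaling. Over all genes, 12397 with all 10 libraries, 131 were called higher and 138 lower. These counts were 685 and 436 under BH adjustment and 479 and 331 with DESeq2, and edgeR called 81 higher. With 1 library left out they were 18 to 144 and 29 to 153. Column total scaling made 64% of the calls higher, against 48.7%, and shifted the median of all genes to 0.087. In the pathway lists, 2 of the 37 tested genes were higher and 2 lower, with 1 higher under TMM scaling and 8 under BH adjustment. With 1 library left out, 0 to 4 were higher and 1 to 2 lower. In the marker lists, 2 of the 66 tested genes were higher and 2 lower, where 1.06% and 1.11% of all genes tested were. Under BH adjustment 24 and 5 of the 66 were, and with 1 library left out 0 to 7 and 0 to 1. The lists were written with earlier results of these data known, so these counts are not read as results about a list. The causes were not tested. IL21 had 29 reads in all early libraries and IL2RA 63 reads per stage, so that both rest on few reads, and the part of depth in their spread was not tested.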
